A study of Mus musculus with 8 samples.

Results

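The Jun, Fos and Batf families of transcription factor genes were followed through 4 kinds of mouse CD4 T cell by RNA sequencing: naive cells, and Th1, Th2 and Th17 effector cells. The members were taken by name: *Jun*, *Junb* and *Jund*, then *Fos*, *Fosb*, *Fosl1* and *Fosl2*, then *Batf*, *Batf2* and *Batf3*. These 10 genes are among 23284 gene symbols in the deposited tables, and 7 of the 10 were among the 11198 genes tested, those with a mean of at least 1 FPKM over the 8 libraries. FPKM is a fragment count scaled by the length of the gene's exons and by the depth of the library, so levels can be compared between genes. All cells came from DO11.10 Tg mice, which carry a transgenic T cell receptor for an ovalbumin (OVA) peptide, and the study used mice of 6 to 12 weeks of age. Naive cells were CD44low CD4+ cells sorted from the spleen by surface markers. Effector cells were made from such naive cells in 6 days of culture with 0.3 uM OVA peptide and irradiated splenocytes of BALB/c mice from which T cells had been removed. For Th1 cells, 100 U/ml of IL-12 and 1 ug/ml of anti-IL-4 antibody were added, and for Th2 cells 100 U/ml of IL-4 and 10 ug/ml of anti-IFN-gamma antibody, each with 30 U/ml of IL-2 from culture supernatant. For Th17 cells, IL-6, IL-1beta and IL-23 (10 ng/ml of each) and both antibodies (10 ug/ml of each) were added, with no IL-2 named. There were 2 libraries in each of the 4 groups, and nothing in the sources says whether they came from separate mice or cultures, so the p-values below measure only the spread between these libraries.

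Proteins of the Jun and Fos families carry a basic region that grips DNA and a leucine zipper through which they pair. Pairs of a Jun and a Fos protein, or of Jun proteins alone, make up AP-1, which binds the site TGACTCA and is induced within minutes when the T cell receptor is engaged. Batf proteins are small members of the same class that lack the activation domain of Fos, compete with it for Jun partners, and bind together with IRF4 or IRF8 at composite sites near genes of effector T cells. BATF is known for its role in Th17 and follicular helper T cells and BATF3 for its role in a class of dendritic cells.

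The files implied 14463466 to 21058286 fragments per library. Sums of lineage markers followed the labels. *Tbx21*, *Ifng* and *Il12rb2* summed to 898 to 1040 FPKM in Th1 and to at most 132 elsewhere. Of these, *Il12rb2* was shared, with means of 213 in Th1, 119 in Th17, 33.1 in Th2 and 0.638 in naive cells. *Gata3*, *Il4*, *Il5* and *Il13* summed to 384 to 417 in Th2 and to at most 26.4 elsewhere. The Th17 cytokine genes *Il17a* and *Il17f* stood at 335 to 1010 FPKM in Th17 libraries and at most 1.01 elsewhere. *Tcf7*, a factor of naive T cells, stood at 735 and 741 FPKM in naive and at 5.79 to 67.3 in effector libraries. Marker lists of other cells were low but not at 0. The monocyte or macrophage list of 5 genes summed to 12.2 to 12.8 FPKM in naive, 7.94 to 8.73 in Th1, 20.8 to 27.8 in Th2 and 17.0 to 17.2 in Th17 libraries, the B cell list of 5 genes to 2.32 to 12.1, and the dendritic cell list of 4 genes to 0.708 to 3.90. *Cd8b1* stood at 90.5 and 52.8 FPKM in naive and at 8.77 to 12.9 in effector libraries, with *Cd8a* at most 2.94. The neutrophil list of 4 genes summed to 6.52 to 7.65 FPKM in the effector libraries numbered 1 and to 0.0425 to 0.545 in those numbered 2, with *Elane* at 0 in each of the latter. The NK cell list of 2 genes stayed at 0.048 to 0.625. The part of these cells in the results below was not tested. In bulk RNA, fewer cells that express a gene and less of its RNA per cell cannot be told apart.

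RefSeq promoter windows of 250 bases before to 50 bases after the gene start (GRCm38.p6, the same coordinates as mm10) were at hand for 8 of the 10 genes, all but *Fosl1* and *Batf2*. The 250 bases before the start are printed, 5' to 3' on the strand of the gene, for the genes with the steepest falls and rises described below. Capitals mark TGACG, the core of a cAMP response element, and TGACATCA, a variant of the AP-1 site known from the *Jun* promoter.
*Fos*, chr12:85473640-85473889, + strand: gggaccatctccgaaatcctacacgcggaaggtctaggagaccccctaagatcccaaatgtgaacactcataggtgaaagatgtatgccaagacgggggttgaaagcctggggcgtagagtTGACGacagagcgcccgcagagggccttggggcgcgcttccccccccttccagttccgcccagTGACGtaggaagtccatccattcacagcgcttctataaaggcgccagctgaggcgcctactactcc
*Jun*, chr4:95052223-95052472, - strand: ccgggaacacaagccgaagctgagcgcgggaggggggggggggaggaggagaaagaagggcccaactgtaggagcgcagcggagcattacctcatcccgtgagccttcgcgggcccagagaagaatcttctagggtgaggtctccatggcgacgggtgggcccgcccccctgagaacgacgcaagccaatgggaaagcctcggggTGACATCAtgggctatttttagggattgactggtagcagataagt
*Fosl2*, chr5:32136222-32136471, + strand: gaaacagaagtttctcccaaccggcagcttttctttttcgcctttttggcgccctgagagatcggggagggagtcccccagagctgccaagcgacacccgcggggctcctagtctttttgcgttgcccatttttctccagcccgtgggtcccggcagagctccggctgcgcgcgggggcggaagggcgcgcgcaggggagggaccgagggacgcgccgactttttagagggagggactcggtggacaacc
*Batf*, chr12:85686470-85686719, + strand: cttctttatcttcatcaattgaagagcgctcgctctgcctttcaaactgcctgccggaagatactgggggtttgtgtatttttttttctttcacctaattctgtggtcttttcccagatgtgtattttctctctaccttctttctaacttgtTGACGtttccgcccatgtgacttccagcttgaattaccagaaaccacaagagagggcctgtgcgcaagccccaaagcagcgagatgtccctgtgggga
*Batf3*, chr1:191098164-191098413, + strand: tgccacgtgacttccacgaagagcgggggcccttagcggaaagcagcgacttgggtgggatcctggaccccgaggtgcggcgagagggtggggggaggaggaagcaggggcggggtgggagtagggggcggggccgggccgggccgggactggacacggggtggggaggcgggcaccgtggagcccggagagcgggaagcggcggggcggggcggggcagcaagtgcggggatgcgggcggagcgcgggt

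The AP-1 site TGACTCA, searched on both strands, was in none of the 8 windows and in 5.2% of all 32851 promoter windows. The full cAMP response element TGACGTCA, which contains TGACG, was in none of the 8 and in 1.79% of all. The CArG box, the site of serum response factor, was in none of the 8 and in 1.63% of all. Sequence outside the windows was not searched. Whether a gene, *Fos* included, has one of these sites farther upstream is therefore not known from these counts. The shorter letters TGACG and TGACATCA were looked for after the sequences had been seen. TGACG was found at positions -129 to -125 and -66 to -62 of *Fos*, -98 to -94 of *Batf*, -60 to -56 of *Fosb* and -106 to -102 of *Junb*, counted back from the start, and in 20.8% of all windows. TGACATCA was found at -45 to -38 of *Jun* and in 3.62% of all windows. The window of *Batf3* had a GC content of 75.7% with 34 CpG dinucleotides and that of *Fosl2* 64.7% with 32, against medians of 52.7% and 7 over all windows. The window of *Batf* had 49.7% and 9 CpG. These are matches of letters only and the files hold no binding data.

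In naive cells the Jun family made up most of the RNA of the 10 genes. In effector cells the Batf family took a larger share than in naive cells, and in Th2 cells it exceeded the Jun family. The 10 genes summed to 561.5 and 468.5 FPKM in naive, 467.4 and 467.5 in Th1 libraries, 813.4 and 823.2 in Th2 and 779.3 and 874.5 in Th17 libraries. The Jun family took 87.8% and 88.3% of that sum in naive cells, 51.3% and 55.7% in Th1 libraries, 40.3% and 42.9% in Th2 and 47.4% and 54.5% in Th17 libraries. The Batf family took 4.64% and 5.1% in naive cells, 38.2% and 33.7% in Th1 libraries, 52.3% and 49.3% in Th2 and 46.0% and 38.9% in Th17 libraries. The Fos family stayed between 6.57% and 10.6% in every library. Within that near-constant share its members traded places: *Fos* made up 95.3% ± 0.35 (SD, n = 2) of Fos family FPKM in naive cells, whereas *Fosl2* made up 81.9% ± 0.85 in Th1, 78.5% ± 0.71 in Th2 and 92.6% ± 1.2 in Th17. Within the Batf family, *Batf* held 99.1% ± 0.21 in naive and 85.5% ± 2.5 in Th2 cells, while *Batf3* held 74.9% ± 3.4 in Th1 and 72.9% ± 2.8 in Th17 cells. These sums and shares are descriptions and were not tested.

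**Figure D1:**
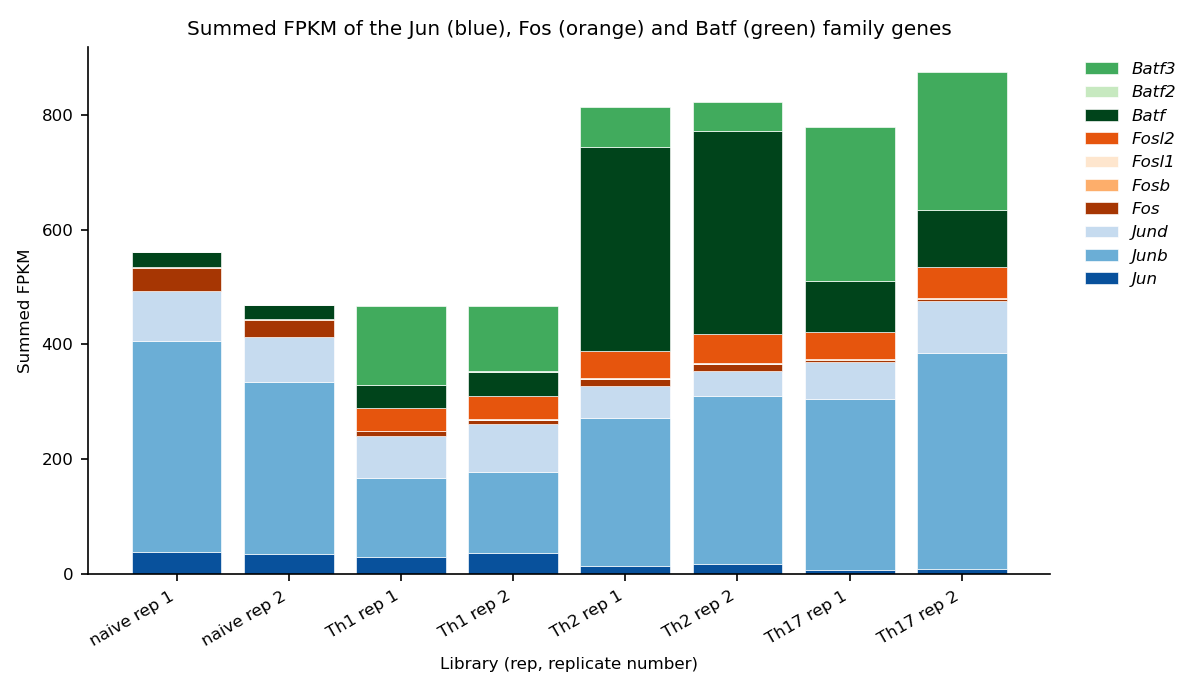
Stacked bars give the FPKM of each of the 10 genes in each of the 8 libraries, with Jun family genes in blue, Fos family genes in orange and Batf family genes in green. Blue fills most of the naive bars, the green part is widest in Th2 libraries (*Batf*) and Th17 libraries (*Batf3*), and the summed height is 813.4 and 823.2 FPKM in Th2 against 467.4 and 467.5 in Th1.

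Among the Jun genes, each had its lowest level in a different effector subset. *Jun* (chr4:95049036-95052222, - strand), the founding member and the usual partner of Fos, stood at 39.1 and 35.5 FPKM in naive, 29.7 and 36.5 in Th1 libraries, 14.3 and 16.7 in Th2 and 6.09 and 7.999 in Th17 libraries. Naive and Th1 values overlapped, Th2 values lay below both, and Th17 values lay below all others. *Jun* fell by 1.22 (SE 0.16) on the log2(FPKM + 1) scale in Th2 and by 2.26 (SE 0.16) in Th17 cells against naive cells (adjusted p = 0.000397 and 1.89e-05), with mean FPKM 2.4-fold and 5.3-fold lower. Its difference in Th1 cells, -0.17 (SE 0.16, adjusted p = 0.364), did not pass. Between subsets, Th1 exceeded Th2 by 1.04 and Th17 by 2.09, and Th17 was below Th2 by 1.04 (SE 0.16 each; adjusted p = 0.00219, 0.000165 and 0.00256). The antisense gene *Junos* shares 232 exonic bases with *Jun*, which bear on 5.83% of its 50-base words.

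*Junb* (chr8:84976909-84978748, - strand), a partner of BATF in helper T cells and the most abundant of the 10 genes in naive cells, was low in Th1 cells. It stood at 366 and 298 FPKM in naive, 137 and 142 in Th1 libraries, 257 and 293 in Th2 and 298 and 376 in Th17 libraries. The Th1 libraries lay below the other 6, the Th2 libraries just under the naive ones, and Th17 and naive values overlapped. *Junb* fell in Th1 cells by 1.24 (SE 0.16, adjusted p = 0.000434) against naive cells, and Th1 was lower than Th2 by 0.97 and than Th17 by 1.26 (SE 0.16 each; adjusted p = 0.00318 and 0.00166). Its other 3 differences did not pass: -0.27 for Th2 against naive (adjusted p = 0.174, but -0.53 and adjusted p = 0.0157 after quantile normalization), 0.29 for Th17 against Th2 (adjusted p = 0.186) and 0.02 for Th17 against naive (adjusted p = 0.92), the last of which was -0.03 after scaling to equal medians and -0.25 after quantile normalization. *Junb* shares 5.76% of its 50-base words with *Prdx2*, whose gene lies beside it.

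*Jund* (chr8:70697739-70700616, + strand), the Jun gene that is usually expressed without stimulation, varied least of the 3. Its FPKM was 88.2 and 79.9 in naive, 73.2 and 82.0 in Th1 libraries, 56.2 and 43.9 in Th2 and 65.4 and 91.8 in Th17 libraries. Only the Th2 libraries lay apart, below the other 6. *Jund* fell in Th2 cells by 0.75 (SE 0.19, adjusted p = 0.0102) against naive cells. Th1 and Th17 each exceeded Th2 by 0.63 (SE 0.19; adjusted p = 0.0332 and 0.0339), and the differences of Th1 and Th17 from naive cells, -0.11 each (SE 0.19), did not pass. The fall in Th2 cells missed the threshold without naive replicate 1 or Th2 replicate 2 (adjusted p = 0.0533 and 0.0686), the excess of Th1 without either Th1 library or Th2 replicate 2 (adjusted p = 0.0764, 0.152 and 0.182) or with no filter on low values (adjusted p = 0.0579), and the excess of Th17 without either Th1 library, Th2 replicate 2 or Th17 replicate 2 (adjusted p = 0.0534, 0.0532, 0.182 and 0.171), with no filter on low values (adjusted p = 0.0569), in a fit of these 2 groups alone (adjusted p = 0.0727) and under each scaling (0.45, adjusted p = 0.084, at equal medians, and 0.49, adjusted p = 0.0513, after quantile normalization). The antisense gene *Gm11175* accounts for 48.3% of the 50-base words of *Jund*, so reads of the pair could be divided between them, and whether strand was used in counting is not given in the sources used here.

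**Figure D2:**
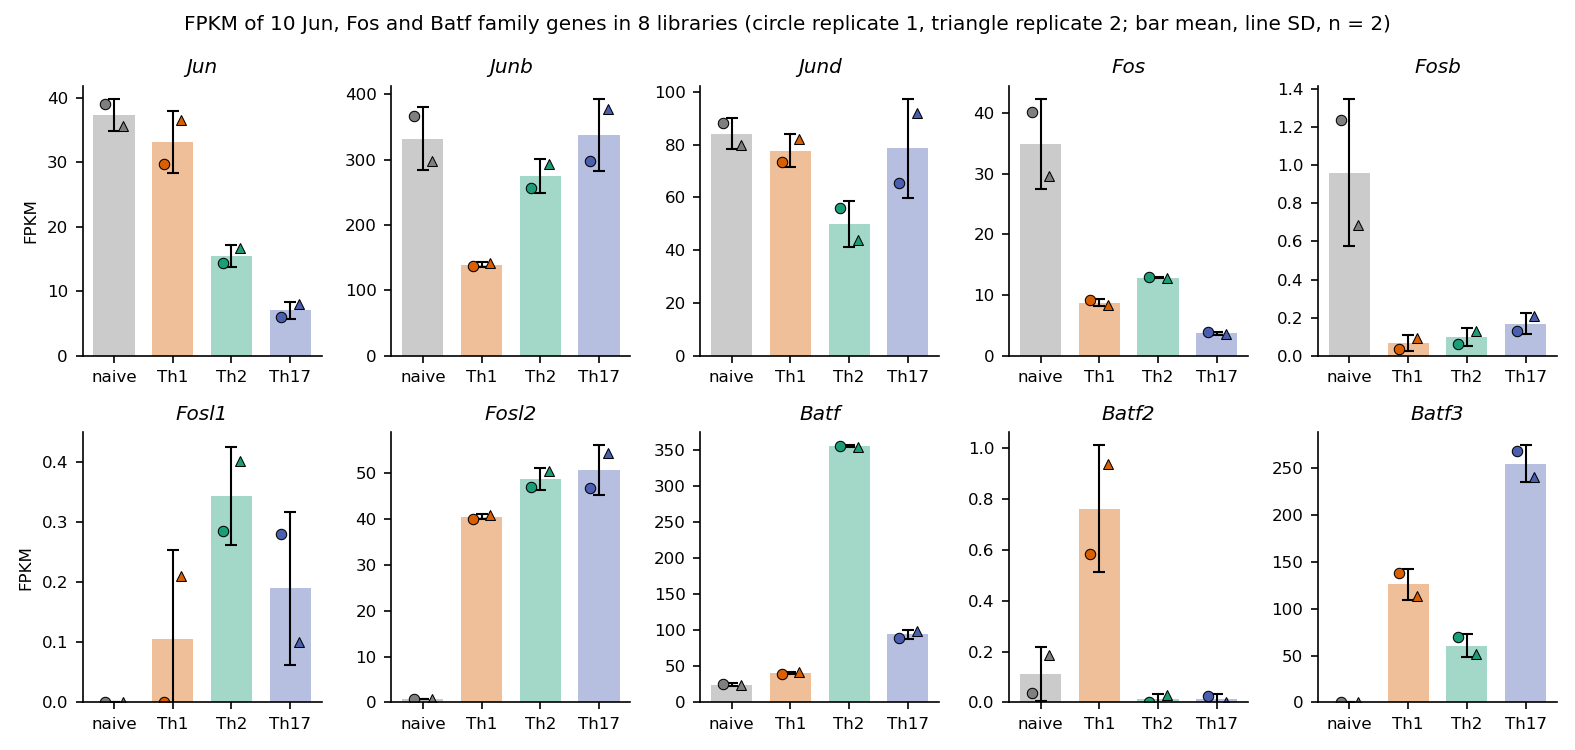
Each panel plots 1 gene, with FPKM on a linear axis from 0, circles for replicate 1, triangles for replicate 2, bars for the mean and lines for the SD (n = 2; lines reaching below 0 are cut off at the axis). *Fos* and *Fosb* are highest in naive cells, *Fosl2* and *Batf3* are lowest there, *Batf* peaks in Th2 at 355 ± 1.46 and *Batf3* in Th17 at 255 ± 19.6 FPKM, and *Junb* is lowest in Th1.

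Of the Fos genes, *Fos* and *Fosb* had their highest levels in naive cells, *Fosl2* was far higher in every effector subset than there, and *Fosl1* was hardly detected. *Fos* (chr12:85473901-85477270, + strand), the classic immediate early gene, stood at 40.1 and 29.6 FPKM in naive, 9.20 and 8.36 in Th1 libraries, 12.9 and 12.9 in Th2 and 3.86 and 3.55 in Th17 libraries. No group overlapped another, in the order naive, Th2, Th1, Th17. *Fos* fell by 1.86, 1.35 and 2.92 in Th1, Th2 and Th17 cells (SE 0.14 each; adjusted p = 3.58e-05, 0.000148 and 3.52e-06), with mean FPKM 3.97-fold, 2.7-fold and 9.41-fold lower than in naive cells. Th17 was lower than Th2 by 1.56 and than Th1 by 1.06 (SE 0.14; adjusted p = 0.000348 and 0.00231). The smallest of its steps, Th1 below Th2 by 0.51 (SE 0.14, adjusted p = 0.0275), missed the threshold without either Th1 library, either Th2 library or Th17 replicate 1 (adjusted p from 0.0501 to 0.137).

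*Fosb* (chr7:19302696-19310045, - strand), another immediate early gene, was also highest in naive cells, at a level too low to be tested. Its FPKM was 1.23 and 0.688 in naive, 0.0364 and 0.0958 in Th1 libraries, 0.0641 and 0.130 in Th2 and 0.130 and 0.209 in Th17 libraries, so the naive libraries lay above the other 6. Those values stand for 157 fragments in the naive libraries against 14, 21 and 33 in Th1, Th2 and Th17. As ratios of level they give 14.7 (95% interval 8.52 to 27.6), 9.93 (6.27 to 16.5) and 5.87 (4.01 to 8.82), intervals that cover counting error only. With no filter on low values, the limma differences from naive cells were -0.87, -0.82 and -0.73 (adjusted p = 0.00266, 0.00289 and 0.00482).

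*Fosl2* (chr5:32136472-32157839, + strand), which encodes FRA-2, behaved in the opposite way. It stood at 0.825 and 0.682 FPKM in naive, 40.13 and 40.96 in Th1 libraries, 47.0 and 50.5 in Th2 and 46.9 and 54.5 in Th17 libraries. Every effector library lay far above both naive libraries, the Th1 libraries lay just below the other effector libraries, and Th2 and Th17 overlapped. *Fosl2* rose by 4.57, 4.83 and 4.88 in Th1, Th2 and Th17 cells (SE 0.10 each; adjusted p = 2.2e-07, 1.6e-07 and 1.75e-07), and its mean FPKM was 53.8-fold, 64.7-fold and 67.3-fold that of naive cells. Th1 differed from Th17 by -0.31 (SE 0.10, adjusted p = 0.0712, or 0.0494 with the replicate number as a block) and from Th2 by -0.26 (adjusted p = 0.084, or 0.0235 at equal medians and 0.0186 after quantile normalization). Th17 against Th2 was 0.05 (adjusted p = 0.709), and -0.13 at equal medians. *Fosl1* (chr19:5447698-5455938, + strand), which encodes FRA-1, was hardly detected: 0 in both naive libraries and Th1 replicate 1, and 0.0997 to 0.401 FPKM in the other 5, from 3 to 14 fragments. It was not among the genes tested. With no filter on low values, Th2 exceeded naive cells by 0.42 (adjusted p = 0.0217) and its other differences did not pass. Of its 50-base words, 52.6% are shared with *Ccdc85b* on the opposite strand.

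The 2 Batf genes that were tested rose in all effector subsets, each with its own peak. *Batf* (chr12:85686720-85709087, + strand) stood at 25.8 and 23.6 FPKM in naive, 39.9 and 42.4 in Th1 libraries, 356 and 354 in Th2 and 89.8 and 99.0 in Th17 libraries. All 4 groups were separate, in the order Th2, Th17, Th1, naive. *Batf* rose by 0.71, 3.79 and 1.89 in Th1, Th2 and Th17 cells (SE 0.10 each; adjusted p = 0.000592, 2.48e-07 and 4.4e-06), which is 1.66-fold, 14.4-fold and 3.82-fold in mean FPKM. Th2 exceeded Th1 by 3.08 and Th17 by 1.90, and Th17 exceeded Th1 by 1.18 (SE 0.10; adjusted p = 2.88e-06, 2.97e-05 and 0.000255).

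*Batf3* (chr1:191098414-191108943, + strand) went from 0.172 and 0.0863 FPKM in naive libraries, which is 3 fragments in all, to 138 and 114 in Th1 libraries, 69.3 and 51.7 in Th2 and 269 and 241 in Th17. Here too the 4 groups were separate, but in the order Th17, Th1, Th2, naive, so that Th2, the subset with the most *Batf*, had the least *Batf3* of the 3. *Batf3* rose by 6.81, 5.75 and 7.82 in Th1, Th2 and Th17 cells (SE 0.16 each; adjusted p = 2.7e-07, 3.43e-07 and 1.75e-07). On the fragments themselves, the ratio of level to naive cells was 976 (95% interval 334 to 4740) in Th1, 468 (160 to 2270) in Th2 and 1980 (679 to 9630) in Th17. Th17 exceeded Th2 by 2.07 and Th1 by 1.01, and Th1 exceeded Th2 by 1.06 (SE 0.16; adjusted p = 0.000187, 0.00476 and 0.00243). The dendritic cell markers *Itgax*, *Flt3*, *Zbtb46* and *Xcr1* were at most 2.27 FPKM in any library and summed to 1.22 and 1.36 in Th1 libraries, 2.72 and 2.82 in Th2 and 3.88 and 3.90 in Th17.

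*Batf2* (chr19:6164458-6172475, + strand), a gene known for its induction by interferon in myeloid cells, was low throughout but highest in Th1 cells. It stood at 0.0374 and 0.188 FPKM in naive, 0.585 and 0.938 in Th1 libraries, 0 and 0.0284 in Th2 and 0.0266 and 0 in Th17 libraries. Both Th1 libraries lay above the other 6, on 53 fragments against 6 in naive cells, a ratio of level of 6.73 (95% interval 2.89 to 19.2). It was not among the genes tested. With no filter on low values, Th1 exceeded naive, Th2 and Th17 cells by 0.66, 0.79 and 0.79 (adjusted p = 0.00357, 0.0036 and 0.00508).

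**Figure D3:**
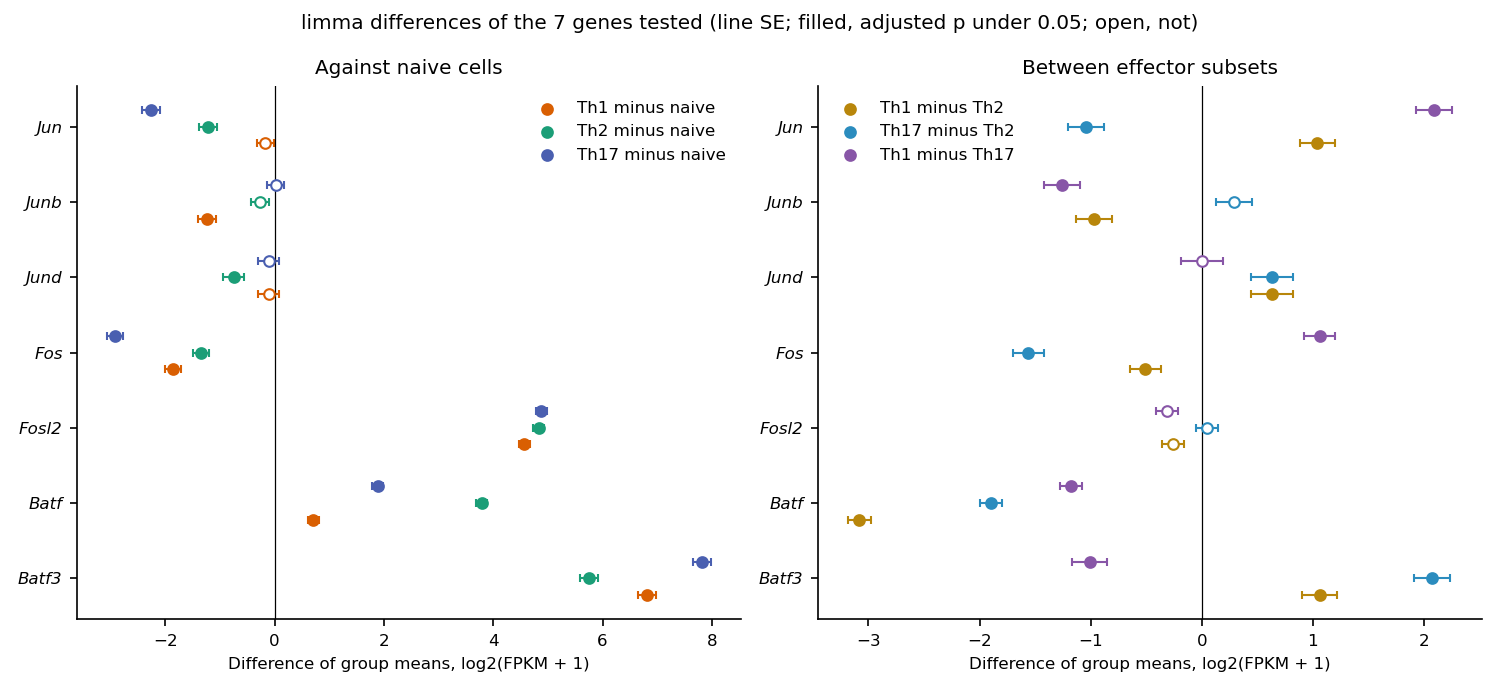
Points give the limma difference of group means on the log2(FPKM + 1) scale for the 7 genes tested, with lines for the SE, filled where the adjusted p was under 0.05 and open where it was not. The left panel sets each subset against naive cells, with *Fosl2*, *Batf* and *Batf3* to the right of 0 in all 3 and *Fos* to the left in all 3, and the right panel sets subsets against each other, with *Batf* from -3.08 to -1.18.

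Of the 7 genes tested, 3 rose and 2 fell in Th1 against naive cells, where 33.8% of all genes tested rose, 33.5% fell and 67.3% did either. In Th2 cells 3 rose and 3 fell, against 31.8% and 38.7% of all genes and 70.5% in either direction. In Th17 cells 3 rose and 2 fell, against 37.5%, 29.8% and 67.3%. These comparisons share the naive libraries. *Fosl2*, *Batf* and *Batf3* rose in all 3 subsets, as did 24.8% of all genes tested, and *Fos* alone of the 7 fell in all 3, as did 23.8%. The share of the 7 that changed was thus near that of all genes in each comparison, while the sizes ranged from -2.92 for *Fos* to 7.82 for *Batf3*, both in Th17 cells.

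Between subsets, 3 of the 7 were higher and 3 lower in Th1 than in Th2 cells, against 27.4% and 16.9% of all genes tested and 44.3% in either direction. In Th17 against Th2 cells 2 were higher and 3 lower, against 31.7%, 12% and 43.6% of all genes. In Th1 against Th17 cells 2 were higher and 3 lower, against 9.17%, 16% and 25.1%, and the difference of *Fosl2* passed as well with the replicate number as a block, making 6. Over the 6 comparisons 32 of 42 differences passed. The median of all genes tested was -0.11 for Th2 against naive cells, 0.11 for Th1 against Th2 and 0.18 for Th17 against Th2, and lay within 0.08 of 0 in the other comparisons, and the differences above were not shifted for it.

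For each gene tested, the gene whose log2(FPKM + 1) over the 8 libraries was most like it was looked up among the other 11191 genes tested, as a description with no test. The 8 points share 4 groups and their depths. *Batf* was closest to *Amz2* (Pearson r = 0.997), whose mean FPKM was 10.3 in naive, 12.8, 29.4 and 17.2 in Th1, Th2 and Th17 cells, and 160 genes had an r of at least 0.95 with it. *Batf3* was closest to *Atp6v1a* (r = 0.999) and *Fosl2* to *Psrc1* (r = 0.999), with 833 and 961 genes at 0.95 or above. *Fos* was closest to *Arhgap15* (r = 0.992, 42 genes). Patterns like those of the Jun genes were rarer: *Jun* was closest to *Dbp* (r = 0.990, 13 genes), *Jund* to *Ppm1g* (r = 0.974, 19 genes) and *Junb* to the MHC class II gene *H2-Eb1* (r = 0.975, 9 genes), which averaged 7.59 FPKM in naive, 2.09, 6.18 and 6.54 in Th1, Th2 and Th17 cells.

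A list of 16 relatives of AP-1, other leucine zipper factors that pair with these proteins or bind like sites, held genes that rose beside *Batf3* and *Fosl2*. All 16 were tested. Against naive cells 8 of them rose in every subset, 4 fell in every subset, and 1 more fell in Th1 and in Th2 cells. Of all genes tested 24.8% rose and 23.8% fell in every subset, so that the share of the list that fell in every subset was near that of all genes. Their median difference from naive cells was 0.45, 0.24 and 0.47 in Th1, Th2 and Th17 cells, against -0.01, -0.11 and 0.08 over all genes tested. *Nfil3*, a repressor that takes part in cytokine and circadian control, averaged 0.832 FPKM in naive and 124, 250 and 90.9 in Th1, Th2 and Th17 cells, with differences of 6.09, 7.10 and 5.65. *Atf3*, a stress-induced factor, rose from 0.123 and 0.0495 FPKM in naive libraries to 10.6 to 26.4 in effector libraries (smallest difference 3.58), and *Crem*, a cAMP-responsive factor, from a mean of 3.96 to means of 49.1, 95.1 and 78.9 (smallest difference 3.33). Among those that fell, *Bach1*, a repressor of heme-regulated genes, averaged 6.18 in naive and 2.65, 2.21 and 0.896 FPKM in Th1, Th2 and Th17 cells, *Nfe2l2*, which encodes the oxidative stress factor NRF2, 31.4 and then 7.50, 7.21 and 15.9, and *Mafk*, a small Maf protein, 19.6 and then 10.0, 7.15 and 9.60.

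Between subsets, the widest gaps of that list were on the Th2 side, like that of *Batf*. *Maf*, an activator of *Il4* and *Il10*, stood at 95.5 and 104 FPKM in Th2 libraries and at 6.54 to 27.5 in the other effector libraries, with Th17 below Th2 by 3.56 (adjusted p = 1.94e-05). *Jdp2*, which encodes a repressor that pairs with Jun proteins, stood at 39.4 and 39.4 FPKM in Th2 and at 2.68 to 5.88 in the other effector libraries, with Th17 below Th2 by 3.19 (adjusted p = 4.64e-05). *Nfil3* was lower in Th17 than in Th2 by 1.45 (adjusted p = 0.000127). *Jdp2* (chr12:85599105-85639878) is the only gene of the deposited tables between *Fos* and *Batf*, which lie 209 kb apart on the same chromosome. Along those 3 neighbours, compared after their values were seen, the difference of Th2 from naive cells was -1.35 for *Fos*, 5.10 for *Jdp2* and 3.79 for *Batf*.

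Other immediate early genes, which like *Fos* answer stimulation or handling of cells within minutes to hours, were mostly higher in naive than in effector cells. Of 17 genes on that list 15 were tested, of which 12 fell and 2 rose in Th1, 11 fell and 1 rose in Th2, and 10 fell and 3 rose in Th17, with 9 falling in all 3. Of all genes tested 33.5%, 38.7% and 29.8% fell in the same comparisons, 33.8%, 31.8% and 37.5% rose, and 23.8% fell in all 3. Their median difference from naive cells was -1.67, -1.33 and -0.79 in Th1, Th2 and Th17 cells, where that of all genes tested was -0.01, -0.11 and 0.08. *Btg2*, an antiproliferative gene, stood at 128 and 116 FPKM in naive and at 13.0 to 23.5 in effector libraries, *Ppp1r15a*, which encodes the stress phosphatase subunit GADD34, at 132 and 114 against 12.1 to 26.9, and *Dusp1*, a phosphatase of MAP kinases, at 51.4 and 41.3 against 8.78 to 14.4. *Ier3* went the other way, from 0.247 and 0.198 in naive to 32.7 to 94.1 FPKM in effector libraries. The heat shock genes *Hspa1a* and *Hspa1b* were at or below 0.695 FPKM in all 8 libraries and were not tested. *Egr1*, unlike *Fos*, did not fall in Th2 cells, at 13.7 and 19.9 FPKM against 14.1 and 15.8 in naive cells (difference 0.14, adjusted p = 0.496). The Th2 differences of *Egr2* (0.09, adjusted p = 0.609) and *Gadd45b* (-0.45, adjusted p = 0.0969) did not pass either. *Klf6* and *Gadd45b* rose in Th17 cells (0.51 and 0.62, adjusted p = 0.0482 and 0.0346). In Th1 cells *Gadd45b* rose further (1.09, adjusted p = 0.00326), and *Klf6* did not pass (0.20, adjusted p = 0.388). After *Egr1*, these 2 had the widest gaps between subsets, *Klf6* with Th17 above Th2 by 1.82 and *Gadd45b* with Th1 above Th2 by 1.53. Whether sorting or culture before lysis had a part in the levels of *Fos*, *Fosb* and *Jun* was not tested.

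Partners of BATF and genes known to be bound by BATF or AP-1 in helper T cells followed the subset. Of 15 genes 14 were tested, of which 8 rose in Th1, 10 in Th2 and 13 in Th17 against naive cells and the other 6, 4 and 1 did not pass. Of all genes tested, 33.8%, 31.8% and 37.5% rose. The median difference of the list was 1.2, 2.69 and 4.70, against -0.01, -0.11 and 0.08 over all genes tested. *Irf4*, the main partner of BATF in T cells, averaged 1.88 FPKM in naive and 113, 184 and 165 in Th1, Th2 and Th17 cells, and *Ctla4*, an inhibitory receptor, 6.40 and then 214, 298 and 183. *Irf8*, the alternative partner, stood at 101 and 112 FPKM in Th1 libraries and at 12.9 to 17.9 in the other effector libraries, with Th1 above Th17 by 2.94 (adjusted p = 3.41e-05). *Il21*, a cytokine whose gene BATF binds, averaged 0.0533 FPKM in naive and 6.48, 20.6 and 41.7 in Th1, Th2 and Th17 cells. The widest gaps between subsets were those of the Th17 cytokines *Il17f*, *Il17a* and *Il22*, at 979 and 1010, 347 and 335, and 238 and 420 FPKM in Th17 libraries and at most 1.71 FPKM in any other. *Il2*, the textbook target of AP-1 with NFAT, was at or below 0.795 FPKM in every library and was not tested.

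**Figure D4:**
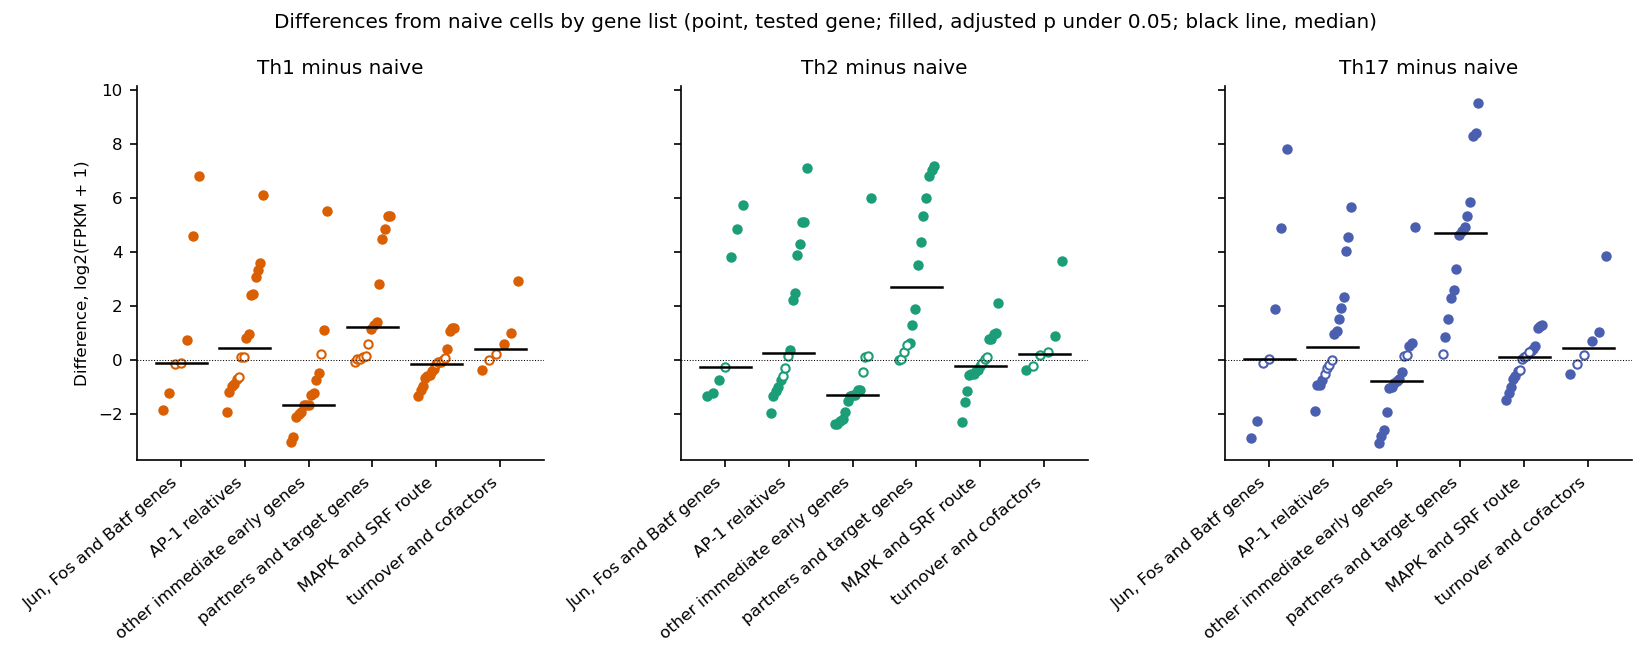
Each point is a tested gene, placed by its limma difference from naive cells on the log2(FPKM + 1) scale in Th1, Th2 and Th17 cells, by gene list, filled where the adjusted p was under 0.05, with a black line at the median of the list. The Jun, Fos and Batf genes spread to both sides of 0, the other immediate early genes lie mostly below 0, and the partners and target genes lie highest in Th17 cells, where their median was 4.70.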

How the data were processed

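RNA was sequenced from 8 libraries, 2 each of naive, Th1, Th2 and Th17 cells, grouped by their sample labels. Per the labels and methods, the authors aligned 50-base reads to mm10 with TopHat 1.3.2 on Bowtie 0.12.8 and deposited FPKM per gene from Cufflinks 2.0.2, with a confidence interval and a status for each value. The submitters' processing notes name the same tools. The library kit is named differently in the labels and in the methods, so strand is not settled. All 80 values of the 10 genes had the status OK.

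FPKM was summed per symbol and log2(FPKM + 1) was fitted in 1 limma model (3.58.1 in R 4.3.3; moderated by eBayes with its trend option) with 4 group means over the 8 libraries and the 11198 genes with a mean of at least 1 FPKM. Tests were two-sided, with Benjamini-Hochberg adjustment over all genes tested and a threshold of 0.05. On this scale the change of a gene at or below about 1 FPKM is understated. Fragments per gene were implied from the width of the deposited confidence intervals, and the intervals of ratios (exact, 95%) cover counting error only. Of the 80 values, 44 lay within 0.05 of a whole fragment, so the test on implied fragments is an alternative only. In simulated data for Th1 against naive cells (11198 genes, 200 of them changed), the model recovered 68.5% of changes of 1 and 96.0% of changes of 2 on the log2 scale. Of its calls, 6.2% and 6.8% were false. Such rates depend on the share of genes that change. In the real data 67.3% of genes passed in that comparison, so the rates do not measure the fit used here.

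Deviations of same-numbered libraries from their group means correlated at 0.138 to 0.294 in all 6 pairs of groups. What a shared number in the labels stands for is not settled. The fit with the number as a block was run beside the other. The named genes are all 10 members, the gene most like each member, overlapping genes, and the strongest genes of each list. From each list these are up to 3 per direction that passed in all subsets, ranked by the smallest of their 3 changes. Up to 3 with the widest gap between subsets were added. Some list genes outside this ranking were named as well: *Srf*, *Irf8*, *Cops5*, *Egr2*, *Il2*, *Hspa1a* and *Hspa1b*. *Ndfip2*, which is inside it, was not described. Members, lists and markers were chosen with earlier results of these data known. Some marker genes are not reported here. Overlaps and 50-base words come from GENCODE M21 and promoters from RefSeq. Deposited starts count from 0 and are printed from 1. Python 3.11.15 was used with numpy 2.4.6 and pandas 2.3.3. The alternatives tried were a pseudocount of 0.1, no filter, a mean of at least 5 FPKM, scaling to equal medians, quantile normalization, a fit of 2 groups, no trend, the replicate block, the highest row per symbol, voom on implied fragments, only genes with the status OK in every library, and each library left out.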

Additional observations from a re-analysis of the deposited data

Results flagged for a closer look

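These differences between effector subsets passed the same limma fit (Benjamini-Hochberg adjusted p under 0.05), so the response of each gene against the shared naive libraries differed between subsets. For each of 6 genes the widest such gap is given. *Batf* was lower in Th1 than in Th2 cells (difference -3.08 on the log2(FPKM + 1) scale). *Jun* was higher in Th1 than in Th17 cells (2.09), and *Batf3* was higher in Th17 than in Th2 cells (2.07). *Fos* was lower in Th17 than in Th2 cells (-1.56), and *Junb* was lower in Th1 than in Th17 cells (-1.26). The gap of *Jund* between Th1 and Th2 cells (0.63) was the smallest of the 6, and its adjusted p of 0.0332 rose to as much as 0.182 under the alternatives. *Fosl2* had no gap between subsets that passed. All 6 gaps had the same sign in libraries numbered 1 and in libraries numbered 2. This had to be so, because the groups compared did not overlap, and it adds no support.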

How the results depend on the processing

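Of 798 differences recomputed under the alternatives, 762 neither turned nor crossed the threshold, 19 lost and 5 gained a call, and 12 turned direction. No difference that had passed turned. The 12 belong to 4 differences near 0. *Junb* in Th17 against naive cells (0.02) became -0.03 at equal medians, -0.25 after quantile normalization and -0.07 with voom, and ranged from -0.15 (without Th17 replicate 2) to 0.19 when a library was left out, with -0.13 without naive replicate 2. *Jund* in Th17 against naive cells (-0.11) ranged from -0.36 to 0.13, the latter without Th17 replicate 1. *Jund* in Th1 against Th17 cells (0.00) became -0.01 with voom and ranged from -0.24 (without Th17 replicate 1) to 0.24, with -0.08 without Th1 replicate 2. *Fosl2* in Th17 against Th2 cells (0.05) became -0.13 at equal medians and -0.09 after quantile normalization and ranged from -0.05 (without Th17 replicate 2) to 0.16. The cause was not tested.

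Leaving out each library in turn gave 5 genes called for Th1 against naive cells, 5 to 6 for Th2 and 5 for Th17 against naive cells, 4 to 6 for Th1 against Th2, 4 to 5 for Th17 against Th2 and 5 for Th1 against Th17. In those fits a lone library is assumed to vary like the other groups. The 19 lost calls were those of *Jund* in Th17 against Th2 (8), in Th1 against Th2 (4) and in Th2 against naive cells (2), and of *Fos* in Th1 against Th2 cells (5). With the replicate number as a block, 33 of 42 differences passed against 32. That fit added *Fosl2* in Th1 against Th17 cells (adjusted p = 0.0494) and changed no other call. The gained calls outside that fit were *Fosl2* in Th1 against Th2 cells (3 settings) and *Junb* in Th2 against naive cells (-0.53, adjusted p = 0.0157, after quantile normalization).

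With 2 libraries a group, an SD is a rough estimate and differences of the size seen for *Jund* are at the edge of detection. *Fosb*, *Fosl1* and *Batf2* rest on few fragments. The effector cultures contained irradiated splenocytes, and no sorting of effector cells before lysis is stated for these libraries.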

Other observations

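Of 17 genes of the MAPK and serum response factor route, all tested by limma, 4 rose and 8 fell in Th1, 5 rose and 9 fell in Th2, and 6 rose and 6 fell in Th17 against naive cells, with a median difference of -0.17, -0.22 and 0.10. Of all genes tested 33.8%, 31.8% and 37.5% rose and 33.5%, 38.7% and 29.8% fell, with medians of -0.01, -0.11 and 0.08. *Mapk3*, which encodes ERK1, averaged 19.7 FPKM in naive and 45.4, 39.7 and 49.8 in Th1, Th2 and Th17 cells, and its upstream kinase *Map2k1* 31.2 and then 66.0, 61.3 and 70.9, both rising in all 3. *Srf* fell from 26.2 to 12.8, 18.0 and 19.3 FPKM, *Mapk8*, which encodes JNK1, from 5.05 to 1.76, 1.70 and 2.71, and *Elk4*, a partner of serum response factor, from 16.4 to 5.48, 4.42 and 4.86, although its naive libraries stood at 10.2 and 22.6. *Mapk14*, which encodes p38 alpha, stood at 53.5 and 50.1 FPKM in naive, 32.1 and 37.8 in Th1, 20.3 and 22.9 in Th17 and 10.4 and 8.82 in Th2 libraries, with Th1 above Th2 by 1.76 (adjusted p = 7.49e-05). *Map2k6*, which encodes a kinase that activates p38, was at 38.1 in Th2, 20.6 in Th17 and 5.87 in Th1 cells, with Th1 below Th2 by 2.50 (adjusted p = 6.56e-06). *Map2k3*, which encodes another such kinase, rose in all 3 subsets and averaged 13.3 FPKM in naive and 31.8, 23.6 and 19.4 in Th1, Th2 and Th17 cells, with Th1 above Th2 by 0.41 (adjusted p = 0.0324). *Map3k1*, an upstream kinase of JNK, stood at 30.7 and 47.8 FPKM in Th2 and at 9.40 and 11.3 in Th17 libraries (difference -1.80, adjusted p = 0.000844).

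Of 6 genes for turnover and cofactors of Jun proteins, 3 rose and 1 fell in Th1, 2 rose and 1 fell in Th2, and 3 rose and 1 fell in Th17 against naive cells, where 31.8% to 37.5% of all genes tested rose and 29.8% to 38.7% fell. *Nedd4*, a ubiquitin ligase, averaged 1.55 FPKM in naive and 18.5, 31.0 and 35.5 in Th1, Th2 and Th17 cells, and *Ndfip1*, an adaptor of such ligases, 88.6 and then 177, 165 and 183. *Itch*, the ligase known to mark JUN and JUNB for degradation, stood at 15.7 to 20.3 FPKM in naive, Th1 and Th2 libraries and at 11.4 and 10.7 in Th17 libraries, where it was lower than in Th2 by 0.69 (adjusted p = 0.0035). *Cops5*, a coactivator of JUN, averaged 28.7 FPKM in naive, 43.5 in Th1 and 47.1 in Th17 cells, and its Th2 libraries, at 38.2 and 31.8, differed from naive cells by 0.27 (adjusted p = 0.0605), which did not pass. None of these values says how much protein was present.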
